A study of Mus musculus with 24 samples.

Results

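Old mouse liver in the dark phase was compared with old mouse liver in the light phase. The 12 libraries from old mice were taken out of the 24 in the series. Time is given as zeitgeber time (ZT), which counts hours from lights on. The 6 libraries collected at ZT14, ZT18 and ZT22 made the dark group, and the 6 collected at ZT2, ZT6 and ZT10 made the light group. All 12 came from mice of the inbred strain C57BL/6, wild type and about 19 months old, with 2 replicate libraries per time. The other 12 libraries came from wild type C57BL/6 mice of about 4 months at the same times and serve here only as the young counterpart. The labels state no sex, no light schedule, no feeding regime and no treatment, so ZT12 was taken as lights off by convention. They also do not say whether replicates were separate animals, or which of the 2 collection days each library came from. Every p therefore measures the spread between these libraries, which may be technical.

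The mouse is active and eats mostly in the dark, and the liver's gene expression follows both its own circadian clock and the daily cycle of feeding and fasting. In the clock, the activators Clock and Arntl (also called Bmal1) bind E-boxes and switch on the Per, Cry and Nr1d genes, whose products repress the activators or their transcription. Clock-controlled factors such as Dbp and Tef pass the rhythm on to metabolic genes. Feeding raises insulin and with it genes of glucose use and fat synthesis, while the daily peaks of body temperature and of corticosterone fall around the start of activity and drive heat shock and glucocorticoid target genes.

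Values below are TPM, a level per transcript length that sums to the same total in every library, after scaling each library by a median of ratios. Differences are dark minus light on log2(scaled TPM + 0.5), tested with limma in a fit with 1 mean per time, and a gene counts as called at a Benjamini-Hochberg adjusted p under 0.05 over all genes tested. Mapped depth in the old libraries equalled 8.70 to 12.3 M reads of 50 bases. The share of TPM from mitochondrially encoded genes was 11.3% ± 4.48 (SD, n = 6) in dark and 11.8% ± 1.05 (SD, n = 6) in light (exact two-sided permutation test, p = 0.851). Both ZT14 libraries lay below the light range of 10.7% to 13.3%, replicate 2 at 8.74% and the lowest of all, replicate 1, at 3.42%. Without it the count of called genes given next was 173. Hepatocyte markers summed to 78708 to 107479 scaled TPM in dark and 78655 to 93014 in light, and all 8 of them were expressed.

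Of 12228 genes tested, 266 (2.18%) differed between dark and light in old liver. Of these, 152 were higher in dark (1.24% of genes tested) and 114 were higher in light (0.932%). The typical called gene changed less than 2-fold: the median log2 difference was 0.87 among genes higher in dark and -0.84 among genes higher in light, and 50 and 33 genes reached 2-fold. In 58 of the 152 every dark library was above every light library, and in 38 of the 114 every light library was above every dark one. Over all genes tested these patterns were found in 0.883% and 0.695%. Of the genes higher in dark, 74 were highest at ZT14, 57 at ZT18 and 17 at ZT22, and 4 at a light time (3 at ZT2 and 1 at ZT10). Genes higher in light were spread over the day, with 26 highest at ZT2, 40 at ZT6 and 48 at ZT10. The median over all genes tested was 0.00, and 50.3% of them lay above 0. With fewer libraries the test is also weaker, and the number of calls changed when single times or libraries were left out. It was 32 without ZT6, 60 without ZT18 and 146 without ZT14, and it ran from 122 to 174 when any 1 of 9 libraries was left out, that is each old library other than both at ZT10 and ZT14 replicate 2. A fit with only the phase means and no term for time called 92.

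Among the clock genes, 3 were higher in dark and 3 higher in light of 17 tested (1.24% and 0.932% of all genes), while 13 varied over the 6 times (2.14% of all genes did). Without ZT10 the counts higher in dark and in light were 6 and 1, and without ZT2 they were 4 and 5. The repressor Cry1 (chr10:85131702-85185054, GRCm38) stood at 2.01 to 9.18 (median 3.24) in the light libraries and 9.43 to 20.7 (median 19.4) in the dark ones, with no overlap (log2 difference 1.87, SE 0.11, adjusted p = 0.000183). It was lowest at ZT6, at 2.04 and 2.01, and highest at ZT22, at 20.7 and 20.6. Per2, a partner of the cryptochromes in repression, was at 0.628 to 5.89 (median 1.202) in light and 1.98 to 11.6 (median 6.44) in dark and was highest at ZT14 and ZT18 (log2 difference 1.49, SE 0.20, adjusted p = 0.00698). Cry1 had no overlap between the phases and Per2 did, since ZT10 libraries reached the level of ZT22.

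Nr1d1, which encodes the repressor REV-ERB alpha (chr11:98767932-98775333), was higher in light. Its 6 light libraries stood at 11.1 to 37.1 (median 19.0) and its 6 dark libraries at 0.112 to 6.60 (median 0.607) (log2 difference -3.71, SE 0.21, adjusted p = 0.000155), an 11.3-fold ratio of means. The 4 libraries of ZT18 and ZT22 were all under 1 scaled TPM. Its paralog Nr1d2 was at 8.33 to 39.7 (median 31.2) in light and 3.04 to 20.5 (median 11.5) in dark (log2 difference -1.30, SE 0.16, adjusted p = 0.00558). Dbp, an activator of output genes, was also higher in light (log2 difference -1.43, SE 0.20, adjusted p = 0.00954), but its phases overlapped: it was at 1.46 and 0.901 at ZT2, 96.6 and 77.0 at ZT10 and 30.4 and 20.4 at ZT14. Calls of both depended on times: Nr1d2 had log2 -0.63 and adjusted p = 0.164 without ZT22, and Dbp had log2 -0.33 and adjusted p = 0.615 without ZT10. Per2 lost its call in 3 of the 6 fits without 1 time (log2 1.32 and adjusted p = 0.0773 without ZT6). Nr1d1 and Cry1 kept theirs without any 1 time or library, with Nr1d1 between -4.59 and -3.20 when 1 time was left out.

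For the other 11 clock genes the dark and light means did not pass the test, although 7 of them varied over the day. Arntl missed the threshold narrowly (log2 1.01, adjusted p = 0.0502). Its high values lay on both sides of lights on: it was at 14.6 and 13.7 at ZT2 and 11.9 and 13.6 at ZT22, against 0 and 0.311 at ZT10. Ciart, a repressor of Clock and Arntl, was listed at 0 in both ZT2 libraries and reached 7.65 and 8.02 at ZT10 and 3.82 and 4.46 at ZT14, on both sides of lights off (log2 -0.19, adjusted p = 0.662). Per1 and Per3 behaved alike, with adjusted p over the 6 times of 0.0023 and 0.00217. Per1 was at 0.0674 and 0.157 at ZT2 and 5.76 and 8.15 at ZT10, and Per3 was at 0.0787 and 0.147 and 5.02 and 6.74. Tef, a relative of Dbp, went from 6.95 and 8.56 at ZT2 to 71.4 and 71.3 at ZT10. Nfil3, which represses Dbp's target sites, was highest at ZT2, at 34.3 and 36.5. Clock itself varied less and was lowest at ZT10, at 4.14 and 4.96 (adjusted p over times 0.0195). Cry2, Rora, Bhlhe40 and Hlf passed neither test, with adjusted p over times of 0.232, 0.714, 0.443 and 0.682. Rora encodes ROR alpha, Bhlhe40 a repressor that binds E-boxes, and Hlf the remaining relative of Dbp. The heat map of clock genes by library shows the replicate pairs side by side.

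**Figure D1:**
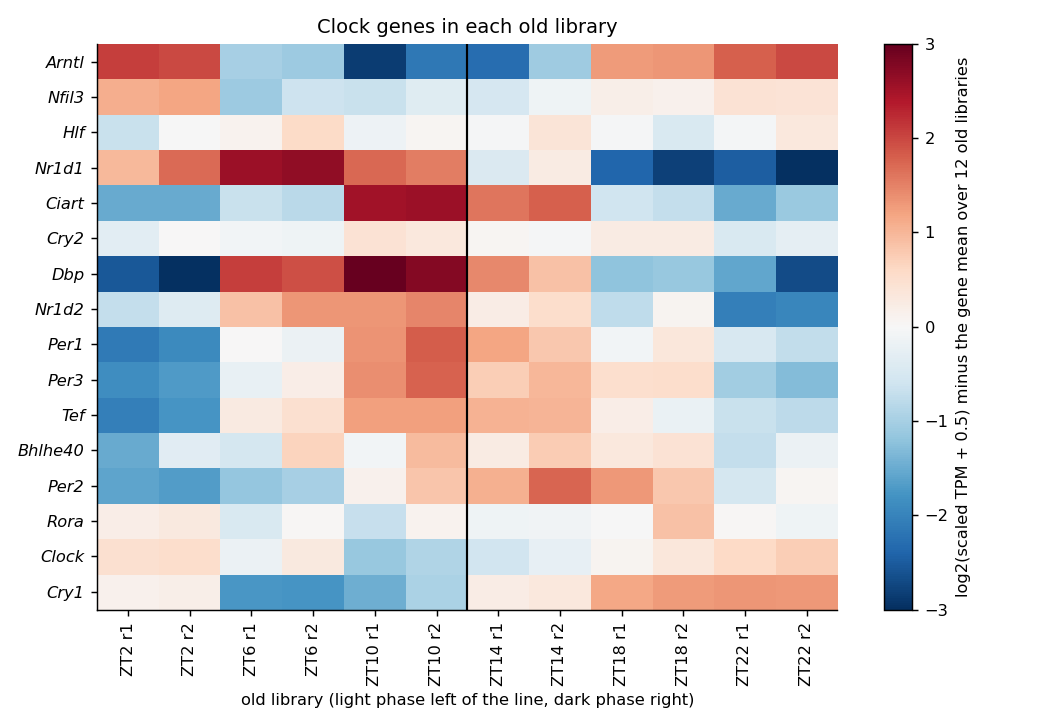
Heat map of 16 of the 17 tested clock genes (rows, ordered by the time of the highest mean) in the 12 old libraries (columns, by zeitgeber time and replicate). Colour gives log2(scaled TPM + 0.5) minus the gene's mean over the 12 libraries, and the line marks lights off. The 2 replicates of a time resemble each other, and Nr1d1 is red in light and blue at ZT18 and ZT22 while Cry1 is blue at ZT6 and ZT10 and red at ZT18 and ZT22.

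Of 14 clock genes with a RefSeq promoter entry (GRCm38.p6, from 250 bases before to 50 after a transcript start), 4 held the E-box letters CACGTG: Cry1, Ciart, Per1 and Tef. These letters, which read the same on both strands, were found in 7.15% of all 32851 promoters. Counted by gene, 8.09% of the 27025 with an entry held them. Nr1d1 had an entry that did not hold these letters. The promoters of Cry1 (antisense strand of chr10:85185005-85185304) and Ciart (antisense strand of chr3:95882179-95882478) are shown 5′ to 3′ as examples of the 4 that held them. Both genes varied over the day, Cry1 with its highest mean at ZT22 and Ciart at ZT10. Capitals mark the E-box, 1 in Cry1 and 3 in Ciart, a number reached by 0.0883% of promoters.
Cry1: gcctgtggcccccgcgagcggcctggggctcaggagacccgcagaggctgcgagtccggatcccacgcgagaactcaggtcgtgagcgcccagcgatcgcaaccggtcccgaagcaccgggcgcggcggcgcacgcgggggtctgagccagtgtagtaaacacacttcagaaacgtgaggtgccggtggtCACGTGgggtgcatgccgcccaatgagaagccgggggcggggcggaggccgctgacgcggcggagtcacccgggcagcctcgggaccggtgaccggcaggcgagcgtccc
Ciart: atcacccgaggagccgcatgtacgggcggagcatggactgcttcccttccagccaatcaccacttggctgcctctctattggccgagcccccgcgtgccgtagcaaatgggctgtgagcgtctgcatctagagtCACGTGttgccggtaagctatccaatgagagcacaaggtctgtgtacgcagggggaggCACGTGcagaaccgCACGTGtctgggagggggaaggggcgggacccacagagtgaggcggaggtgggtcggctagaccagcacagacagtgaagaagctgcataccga
A match is a description of the letters, and the data hold no binding measurement.

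Genes that store glucose and turn it into fat were higher in dark where they were called. Ppp1r3b (chr8:35375741-35388124), the glycogen-targeting subunit of protein phosphatase 1, was at 27.3 to 122 (median 41.5) in light and 156 to 209 (median 191) in dark (log2 difference 1.94, SE 0.18, adjusted p = 0.00183). Every dark library was above every light library. Thrsp (chr7:97412938-97417730), a regulator of fat synthesis also called Spot 14, was at 159 to 500.3 (median 300.4) in light and 416 to 2055 (median 1025) in dark (log2 difference 1.78, SE 0.23, adjusted p = 0.00652). It was highest at ZT18, at 2055 and 1151, and of its ZT22 libraries, at 589.8 and 416, 1 lay within the light range.

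**Figure D2:**
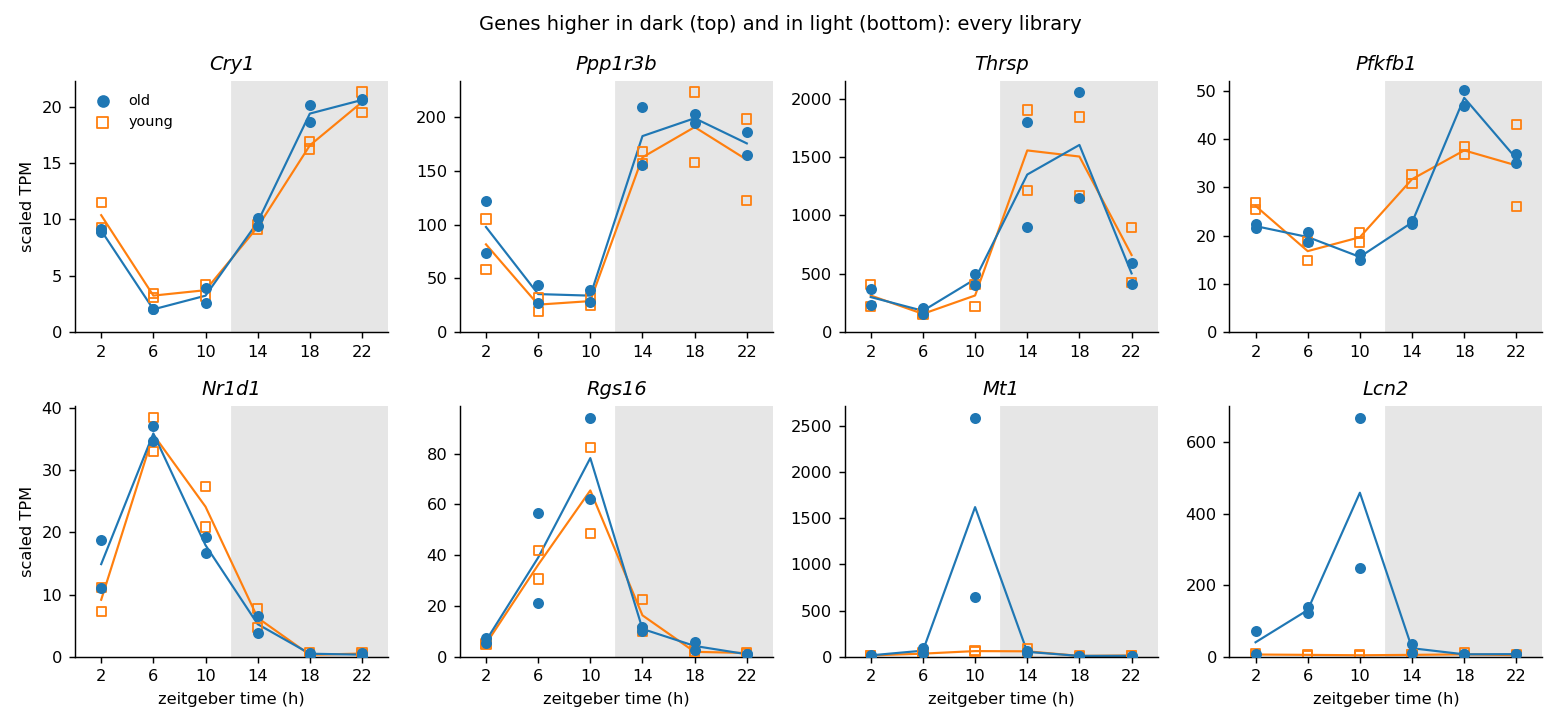
Level of 8 genes in every library by zeitgeber time: filled blue circles are the 12 old libraries, open orange squares the 12 young ones, lines join the means of the 2 replicates, and grey marks the dark phase. Each vertical axis is linear, starts at 0 and gives scaled TPM. Cry1, Ppp1r3b, Thrsp, Nr1d1 and Rgs16 follow like courses at both ages, while Mt1 and Lcn2 reach 2591 and 668 at ZT10 in old liver and are at most 88.9 and 11.2 in young liver. For neither Mt1 nor Lcn2 did the difference between the ages in dark minus light pass its test.

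Of 23 lipogenesis genes tested, 3 were higher in dark and none higher in light: Thrsp, the elongase Elovl6 (log2 0.74, adjusted p = 0.0266) and the lipid droplet protein Pnpla3 (log2 1.11, adjusted p = 0.0401). The median of the 23 was 0.15, beside 0.00 over all genes tested, of which 1.24% were called higher in dark. The acyltransferase Agpat2, at 131 in light and 183 in dark on average, did not pass (log2 0.53, adjusted p = 0.0502). Of 16 genes of glycolysis and glucose uptake, 2 were higher in dark (median 0.25), among them Pfkfb1, whose product sets the level of fructose 2,6-bisphosphate. Pfkfb1 was at 15.0 to 22.4 (median 19.7) in light and 22.4 to 50.3 (median 36.0) in dark and was highest at ZT18 (log2 difference 0.84, SE 0.08, adjusted p = 0.00263). Liver pyruvate kinase Pklr did not pass (log2 0.60, adjusted p = 0.0602). Of 11 glycogen genes only Ppp1r3b was called, and the median of the 11 was -0.10. Without ZT6 no lipogenesis gene was called, nor without ZT18, where the list's median was -0.04. Leaving out 1 library ended the call of Elovl6 in 9 of 12 fits and that of Pnpla3 in 10, with adjusted p up to 0.108 for Pnpla3 without ZT2 replicate 1. Elovl6 had log2 0.36 and adjusted p = 0.401 without ZT18. Thrsp had log2 1.45 and adjusted p = 0.097 without ZT6. Pfkfb1 had log2 0.59 and adjusted p = 0.0533 without ZT18, and Pnpla3 had log2 0.51 and adjusted p = 0.402 without ZT18.

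Genes called higher in light included Trib3 and Sds, both induced by fasting. Trib3, a pseudokinase that binds Akt, was at 1.86 to 11.1 (median 5.05) in light and 0.338 to 1.13 (median 0.843) in dark, without overlap (log2 difference -1.96, SE 0.29, adjusted p = 0.0103). It was the only call among 15 genes of insulin and fasting signals, beside 0.932% of all genes tested called higher in light. The fasting-induced genes Igfbp1 and Irs2 were lower in dark on average but did not pass (log2 -2.28, adjusted p = 0.129; log2 -1.06, adjusted p = 0.125). Igfbp1 ranged from 9.35 to 161 within light alone. Among 13 gluconeogenesis genes the serine dehydratase Sds was called (log2 -0.83, adjusted p = 0.0491). Pck1, the cytosolic phosphoenolpyruvate carboxykinase, was at 319.9 to 1483 (median 554) in light and 102 to 508 (median 278) in dark and did not pass (log2 -1.17, adjusted p = 0.208). The 2 Pck1 replicates differed by over 2-fold at ZT10, at 646 and 1483. Trib3 had log2 -1.59 and adjusted p = 0.101 without ZT6, and Sds had log2 -0.54 and adjusted p = 0.268 without ZT18. Sds also lost its call in 9 of 12 fits without 1 library (adjusted p up to 0.139 without ZT2 replicate 1).

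Of 27 autophagy and lysosome genes, 3 were higher in light and none in dark, and 18 of the 27 lay below 0 (median -0.12). Over all genes tested 0.932% were called higher in light and 50.3% lay above 0. Gabarapl1, an ATG8 family protein of the autophagosome membrane, was at 233 to 335 (median 288) in light and 124 to 238 (median 146) in dark (log2 difference -0.84, SE 0.10, adjusted p = 0.00516). The starting kinase Ulk1 and the PI3-kinase subunit Atg14 passed the threshold narrowly (log2 -0.65, adjusted p = 0.0439; log2 -0.47, adjusted p = 0.0481). Without 1 library Ulk1 was not called in 10 of 12 fits and Atg14 in 12 of 12, with adjusted p up to 0.137 for Atg14 without ZT6 replicate 2. With 1 library left out the log2 difference stayed at -0.74 to -0.57 for Ulk1 and -0.51 to -0.44 for Atg14. Gabarapl1 lost its call without 1 time in 2 of 6 fits (log2 -0.73 and adjusted p = 0.0604 without ZT6).

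Both subunits of the sterol exporter were higher in light. Abcg5 was at 27.9 to 59.1 (median 45.2) in light and 18.5 to 42.4 (median 22.4) in dark (log2 difference -0.67, SE 0.08, adjusted p = 0.00516), and Abcg8 was at 19.2 to 36.9 (median 28.7) and 9.84 to 19.7 (median 14.7) (log2 difference -0.95, SE 0.13, adjusted p = 0.00698). Both were lowest at ZT18, Abcg5 at 18.6 and 18.5 and Abcg8 at 9.84 and 11.4. Hsd3b7, an early enzyme of bile acid synthesis, was lowest at ZT14, at 74.2 and 101 (log2 difference -0.86, SE 0.17, adjusted p = 0.0347). These were the 3 calls among 15 genes of bile acid synthesis and sterol export, whose median was -0.08. The share called higher in light over all genes tested was 0.932%. Akr1d1, which reduces bile acid intermediates, was higher in dark on average and did not pass (log2 0.41, adjusted p = 0.0663). None of 25 cholesterol synthesis genes was called (median 0.04). Without ZT18 the 2 exporter genes were not called (log2 -0.44 and adjusted p = 0.111 for Abcg5, log2 -0.75 and adjusted p = 0.0694 for Abcg8), and Hsd3b7 had log2 -0.50 and adjusted p = 0.26 without ZT14. Hsd3b7 also lost its call in 9 of 12 fits without 1 library (adjusted p up to 0.11 without ZT6 replicate 2).

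Heat shock and chaperone genes were the pathway list with the most calls in 1 direction: 9 of 23 were higher in dark, none was higher in light, 22 of 23 lay above 0 and the median was 0.77. Over all genes tested 1.24% were called higher in dark and 50.3% lay above 0. Summed over the list, the dark libraries held 2091 to 3618 scaled TPM and the light libraries 1636 to 2069.6. Hsph1 (chr5:149614287-149636376), which helps HSP70 release its clients, was at 6.03 to 20.997 (median 10.2) in light and 17.2 to 66.7 (median 33.7) in dark (log2 difference 1.501, SE 0.12, adjusted p = 0.000814). It was highest at ZT14, at 46.7 and 66.7, and at ZT22, at 17.2 and 19.3, it was below its ZT2 libraries, at 20.9 and 20.997. The small heat shock protein gene Hspb1 was at 6.44 to 20.0 (median 10.7) in light and 19.6 to 54.3 (median 30.5) in dark, highest at ZT18 (log2 difference 1.38, SE 0.17, adjusted p = 0.00516). Stip1, which links HSP70 to HSP90, was at 27.4 to 50.8 (median 30.4) in light and 44.4 to 72.5 (median 65.6) in dark (log2 difference 0.79, SE 0.09, adjusted p = 0.00332). Chordc1, an HSP90 cochaperone, was at 14.3 to 24.4 (median 21.2) and 25.3 to 48.4 (median 39.0), without overlap (log2 difference 0.84, SE 0.11, adjusted p = 0.00652).

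The other 5 called chaperone genes are named after their values were seen. On average the cochaperone Fkbp4 was at 88.7 in light and 163 in dark, the HSP70 partner Dnaja1 at 79.4 in light and 164 in dark and the HSP90 activator Ahsa1 at 65.6 in light and 89.9 in dark. Hspa8, the constitutive HSP70, was at 311 in light and 599.8 in dark, and Hsp90aa1, the inducible cytosolic HSP90, was at 86.7 in light and 178 in dark. Their log2 differences ran from 0.46 for Ahsa1 to 1.002 for Hsp90aa1. The number of called chaperones was 3 without ZT6, 4 without ZT14 and 4 without ZT18, and the list's median stayed between 0.47 and 0.95 when 1 time was left out. Hsph1 and Stip1 kept their calls in each of these fits. Hspb1 had log2 1.33 and adjusted p = 0.057 without ZT6, and Chordc1 had log2 0.69 and adjusted p = 0.0595 without ZT6.

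The heat shock element, the binding site of the heat shock factors, was searched as GAANNTTCNNGAA and TTCNNGAANNTTC on both strands, with overlapping matches counted. It was found in 0.603% of all promoters and in 0.662% of the 27025 genes with an entry. Of the 23 chaperone genes tested 17 had an entry and 4 held the element, among them Hspd1 and Hspe1, which were not called. Of the 9 called chaperone genes 7 had an entry, and 2 of these held the element, Hsph1 and Chordc1. Their promoters (antisense strand of chr5:149636287-149636586 for Hsph1, the first of 2 entries, and sense strand of chr9:18292017-18292316 for Chordc1) are shown with the element in capitals. In Chordc1 3 matches overlap into 1 run, a number that 0.00304% of promoters reach. In Hsph1 the element starts at position 37, counting the transcript start as 1.
Hsph1: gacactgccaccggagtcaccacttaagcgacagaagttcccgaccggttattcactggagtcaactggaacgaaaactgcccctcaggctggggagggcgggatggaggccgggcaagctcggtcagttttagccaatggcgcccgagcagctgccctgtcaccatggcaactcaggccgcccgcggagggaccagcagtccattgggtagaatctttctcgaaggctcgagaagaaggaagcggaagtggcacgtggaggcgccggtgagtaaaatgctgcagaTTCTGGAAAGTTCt
Chordc1: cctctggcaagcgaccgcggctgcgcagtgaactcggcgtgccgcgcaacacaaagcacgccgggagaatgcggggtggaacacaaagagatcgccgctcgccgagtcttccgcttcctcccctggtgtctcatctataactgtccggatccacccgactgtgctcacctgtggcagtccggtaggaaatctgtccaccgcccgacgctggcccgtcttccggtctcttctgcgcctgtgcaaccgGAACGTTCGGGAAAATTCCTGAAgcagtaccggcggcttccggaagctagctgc
In the other 5 called chaperone genes with an entry these letters are not in this window.

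Folding genes of the endoplasmic reticulum and ribosome assembly genes gave fewer calls in the same direction. The share called higher in dark over all genes tested was 1.24%. Of 26 genes of the unfolded protein response, 2 were higher in dark, the chaperone Hyou1 (log2 0.71, adjusted p = 0.0285) and Creld2 (log2 0.97, adjusted p = 0.0328), and the median was 0.19. Hyou1 was also high at ZT2, at 57.6 and 94.0, so its phases overlapped. Of 27 ribosome biogenesis genes, 3 were higher in dark (median 0.36): the nucleolar phosphoprotein gene Nolc1 (log2 0.87, adjusted p = 0.0131), Nop56 of the box C/D particle (log2 0.58, adjusted p = 0.0439) and Nop16 (log2 0.64, adjusted p = 0.0491). Nolc1 and Nop56 were highest at ZT14, at 18.2 and 15.4 and 39.7 and 27.4. None of 78 cytosolic ribosomal protein genes was called (median 0.06), and none of 8 chaperonin subunit genes (median 0.21). Cirbp, an RNA-binding protein gene induced by cold, went the other way from the heat shock genes (log2 difference -0.90, SE 0.17, adjusted p = 0.0319). It was at 12.5 to 21.1 (median 17.1) in light and 5.32 to 10.9 (median 8.89) in dark, without overlap. The other of the 2 genes tested in the cold-inducible list was not called (log2 -0.08). Leaving out 1 library ended the calls of Hyou1, Creld2 and Cirbp in 10 of 12 fits each and those of Nop56 and Nop16 in 11, with adjusted p up to 0.139 (Nop16 without ZT22 replicate 1). Nolc1 had log2 0.65 and adjusted p = 0.163 without ZT6, Hyou1 had log2 0.46 and adjusted p = 0.324 without ZT6 and Creld2 had log2 0.72 and adjusted p = 0.256 without ZT6. Without ZT14 no ribosome biogenesis gene was called (median 0.17).

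Of 15 targets of the glucocorticoid receptor tested, 4 were higher in dark and 4 higher in light, and the median was -0.03. The shares over all genes tested were 1.24% and 0.932%. Counts higher in dark and in light were 5 and 0 without ZT10, 1 and 0 without ZT18 and 1 and 1 without ZT6. Tsc22d3, which encodes the anti-inflammatory protein GILZ, was at 30.0 to 47.5 (median 32.5) in light and 65.3 to 105 (median 79.0) in dark, without overlap (log2 difference 1.25, SE 0.12, adjusted p = 0.00263). The cell cycle inhibitor gene Cdkn1a was at 1.02 to 7.77 (median 2.88) in light and 2.26 to 17.0 (median 9.29) in dark, highest at ZT22 (log2 difference 1.38, SE 0.23, adjusted p = 0.0169). Fkbp5, a cochaperone that restrains the receptor, and Zbtb16, a zinc finger repressor, were also higher in dark, at 10.8 in light and 21.7 in dark and at 1.80 in light and 5.32 in dark on average. Klf9, a transcription factor gene, was at 34.2 in light and 22.7 in dark. These last 3 are named after their values were seen. Tsc22d3 kept its call without any 1 time or library, and Cdkn1a had log2 0.89 and adjusted p = 0.271 without ZT6 and lost its call in 5 of 12 fits without 1 library (adjusted p up to 0.0622 without ZT2 replicate 1). The remaining 3 genes higher in light were Mt1, Mt2 and Lcn2, which also respond to metals or inflammation, and Lcn2 is in the acute phase list too.

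Mt1 (chr8:94179089-94180325) and Mt2 (chr8:94172618-94173567) encode metallothioneins, small proteins that bind zinc and copper. In light Mt1 was at 8.69 to 2591 (median 66.5) and in dark at 7.88 to 62.8 (median 11.8) (log2 difference -2.54, SE 0.40, adjusted p = 0.0126). Mt2 was at 4.48 to 2508 (median 35.4) in light and 0 to 29.3 (median 5.25) in dark, where 1 library listed it at 0 (log2 difference -3.55, SE 0.61, adjusted p = 0.0197). Both genes were highest at ZT10, where Mt1 stood at 2591 and 652 and Mt2 at 2508 and 743, while both genes at ZT2 were in the range of the dark libraries. Without ZT10 neither was called, Mt1 with log2 -0.72 and adjusted p = 0.402 and Mt2 with log2 -1.37 and adjusted p = 0.412. Mt2 lost its call in 5 of 12 fits without 1 library (adjusted p up to 0.0755 without ZT6 replicate 2). In young liver at ZT10 Mt1 was at 55.8 and 67.7 and Mt2 at 18.3 and 16.7. The young dark minus light differences had the same sign, at log2 -0.68 for Mt1 and -0.83 for Mt2. The difference between the ages in dark minus light did not pass its test for either gene (limma, unadjusted p = 0.00434 and 0.0104).

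The promoters of both genes lie on the sense strand of chromosome 8 (chr8:94178839-94179138 and chr8:94172368-94172667) and are shown because the pair moved together. Capitals mark the core of the metal response element, searched as TGCACNC and TGCGCNC on both strands, with 3 matches in Mt1 and 4 in Mt2. At least 1 match was found in 25.7% of all promoters, at least 3 in 1.97% and at least 4 in 0.517%.
Mt1: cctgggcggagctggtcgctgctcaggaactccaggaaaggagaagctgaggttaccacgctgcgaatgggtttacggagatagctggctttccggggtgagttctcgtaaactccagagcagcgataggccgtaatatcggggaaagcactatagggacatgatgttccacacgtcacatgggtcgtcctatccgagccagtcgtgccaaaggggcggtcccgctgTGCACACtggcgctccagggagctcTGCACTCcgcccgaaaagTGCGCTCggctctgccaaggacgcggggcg
Mt2: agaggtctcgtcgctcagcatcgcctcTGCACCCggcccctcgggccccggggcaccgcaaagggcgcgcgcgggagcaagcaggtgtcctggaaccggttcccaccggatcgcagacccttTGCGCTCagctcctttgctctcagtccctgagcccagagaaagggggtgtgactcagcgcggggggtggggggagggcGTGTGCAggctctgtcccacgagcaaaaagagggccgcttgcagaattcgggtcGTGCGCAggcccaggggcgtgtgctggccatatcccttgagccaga
The letters were matched only within these 300 bases.

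Genes of the acute phase, the liver's secretory response to inflammation, were higher in light where they were called, 4 of 22, none was higher in dark, 20 of 22 lay below 0 and the median was -0.72. Among all genes tested 0.932% were called higher in light and 50.3% lay above 0. Lcn2 (chr2:32384633-32388252), the iron-scavenging protein lipocalin 2, was at 9.06 to 668 (median 131) in light and 6.4002 to 36.1 (median 7.69) in dark (log2 difference -3.38, SE 0.49, adjusted p = 0.0102). It was at 72.0 and 9.06 at ZT2, 122 and 139 at ZT6 and 668 and 248.5 at ZT10. Thus 1 of the ZT2 replicates lay in the range of the dark libraries and the other did not. Il1rn, the interleukin 1 receptor antagonist, was highest at ZT10, at 6.70 and 6.03 (log2 difference -1.48, SE 0.18, adjusted p = 0.00516). The fibrinogen chain gene Fga was at 2996 to 4712 (median 3497) in light and 1720.4 to 3156 (median 2029.8) in dark (log2 difference -0.76, SE 0.16, adjusted p = 0.0488), and Orm2, an alpha-1-acid glycoprotein, at 235 to 1083 (median 631) and 243 to 351 (median 279) (log2 difference -1.07, SE 0.23, adjusted p = 0.0499). Summed over the list, the light libraries held 19774 to 59448 scaled TPM and the dark libraries 16447 to 21002. Without ZT10 no acute phase gene was called (median -0.56), and Lcn2 then had log2 -2.45 and adjusted p = 0.0637. Lcn2 also lost its call without ZT6 (adjusted p = 0.0809), and Il1rn had log2 -1.01 and adjusted p = 0.0634 without ZT10. Leaving out 1 library ended the call of Fga in 11 of 12 fits and that of Orm2 in 10, with adjusted p up to 0.141 for Fga without ZT2 replicate 1, and Orm2 had log2 -0.69 and adjusted p = 0.288 without ZT10.

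Markers of neutrophils, the granulocytes of blood, also stood lower in dark on average. All 4 tested markers lay below 0 (median -1.96) and 1 was called, S100a9, a calcium-binding protein that neutrophils hold in bulk, at 10.7 to 57.0 (median 41.2) in light and 2.63 to 15.0 (median 8.53) in dark (log2 difference -2.01, SE 0.34, adjusted p = 0.0195). Its partner S100a8 was at 11.6 to 63.7 (median 46.8) in light and 0 to 16.4 (median 10.98) in dark and did not pass (log2 -2.20, adjusted p = 0.149), nor did Retnlg (log2 -1.91, adjusted p = 0.082) or Ngp (log2 -1.17, adjusted p = 0.209). The 8 neutrophil markers summed to 23.8 to 138 in light and 2.63 to 31.9 in dark, with Ly6g listed at 0 in all old libraries. Of the 8, 4 were below the filter, and S100a8 and S100a9 made up most of the sum (light median 96.8). The filter takes the mean over all old libraries, so a marker of low level can pass it through the light libraries alone. The count of tested markers below 0 is therefore a description and no support for a difference. The lowest sum, 2.63, was in ZT14 replicate 1, the library with the low mitochondrial share, where S100a8 was listed at 0. Prtn3, a protease of neutrophil granules, was at 0.748 to 23.9 (median 7.97) in light and 0 to 3.51 (median 0.797) in dark, listed at 0 in both ZT22 libraries (log2 difference -2.47, SE 0.39, adjusted p = 0.0133). In whole liver, fewer cells of a type and less RNA per cell cannot be told apart.

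Kupffer cells are the resident macrophages of the liver. All 11 of their markers lay below 0 (median -0.36) and none was called. The median was -0.13 without ZT10 and -0.57 without ZT2. The smallest p was that of Cd5l, at 77.2 to 281 (median 133) in light and 63.9 to 124 (median 94.9) in dark (log2 -0.53, adjusted p = 0.0996). The 11 markers summed to 415 to 1069 in light and 406 to 565 in dark, with the highest value in ZT10 replicate 2. Markers of monocytes and macrophages summed to 173 to 347 in light and 158 to 218 in dark. The chemokine genes Cxcl1 and Ccl2 were higher in light on average and did not pass (log2 -1.72, adjusted p = 0.139; log2 -1.06, adjusted p = 0.0941). Tifa, an adaptor of NF-kappaB signalling, was called in each fit without 1 time or library, at 16.5 to 117 (median 25.3) in light and 9.87 to 15.0 (median 11.9) in dark without overlap (log2 difference -1.49, SE 0.16, adjusted p = 0.00332), with log2 -1.94 to -0.82 when 1 time was left out. What part the cell types have in the acute phase difference was not tested. Leaving out 1 library ended the call of S100a9 in 6 of 12 fits (adjusted p up to 0.0776 without ZT6 replicate 2), S100a9 had log2 -1.75 and adjusted p = 0.167 without ZT6, and Prtn3 had log2 -1.69 and adjusted p = 0.127 without ZT10.

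**Figure D3:**
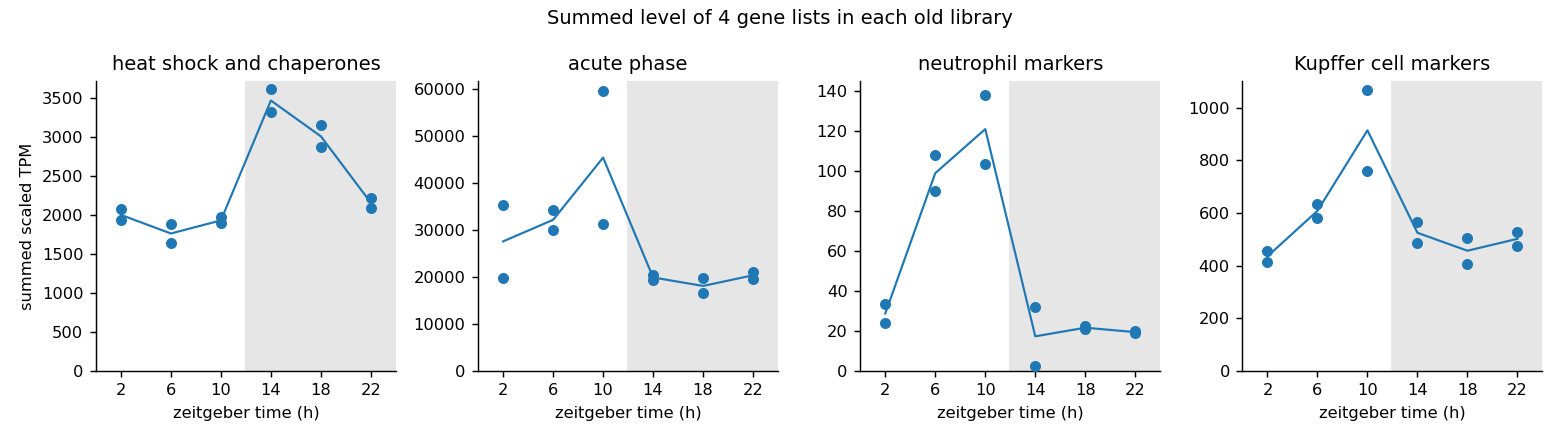
Summed level of 4 gene lists (scaled TPM, linear axes from 0) in each of the 12 old libraries by zeitgeber time, with lines through the means of the 2 replicates and grey for the dark phase. Heat shock and chaperone genes are highest at ZT14, while the acute phase, neutrophil and Kupffer cell lists are highest at ZT10, where the 2 replicates lie far apart for the acute phase genes (the higher at 59448).

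Several of the genes with the largest differences belonged to none of these groups. Cml5, a putative N-acetyltransferase gene (chr6:85817221-85820972), was at 8.67 to 29.0 (median 10.6) in light and 34.6 to 96.7 (median 56.8) in dark (log2 difference 2.09, SE 0.14, adjusted p = 0.000256). Serpina4-ps1, a pseudogene of the serine protease inhibitor cluster, was at 10.1 to 39.1 (median 20.2) in light and 68.7 to 114 (median 87.3) in dark (log2 difference 2.10, SE 0.28, adjusted p = 0.00698), and reads shared with other cluster members could affect it. Both genes had no overlap between phases. The collagen gene Col27a1 (log2 1.78, adjusted p = 0.00954) and Pcp4l1, a gene of a small calmodulin-binding family (log2 1.55, adjusted p = 0.0128), also had no overlap. The secreted protein gene Tsku was highest at ZT14, at 95.8 and 109.6 (log2 1.57, adjusted p = 0.0135). Usp2, a clock-linked deubiquitinase, ran from 0.366 and 0.227 at ZT2 to 35.7 and 26.6 at ZT14, and its ZT10 libraries, at 21.4 and 30.0, overlapped the night (log2 1.78, adjusted p = 0.0159). Among genes higher in light, Rgs16 (chr1:153740349-153745468), a brake on G protein signalling, was at 5.38 to 94.2 (median 39.1) in light and 0.909 to 11.8 (median 4.27) in dark (log2 difference -2.64, SE 0.27, adjusted p = 0.00263). Its ZT2 libraries, at 5.38 and 7.27, lay within the dark range. The proapoptotic gene Bmf was at 6.17 to 8.21 (median 7.16) in light and 0.913 to 3.43 (median 2.24) in dark without overlap (log2 difference -1.56, SE 0.16, adjusted p = 0.00263). Gpcpd1, a glycerophosphocholine phosphodiesterase, was highest at ZT10, at 96.3 and 95.7 (log2 -1.38, adjusted p = 0.00516). Cml5, Rgs16 and Bmf kept their calls without any 1 time or library, although the log2 difference of Rgs16 ran from -3.62 to -1.87 when 1 time was left out. Usp2 lost its call in 5 of 12 fits without 1 library (adjusted p up to 0.0547 without ZT22 replicate 2) and Tsku in 1. Without 1 time Usp2 had log2 0.66 and adjusted p = 0.393 without ZT2, Tsku had log2 0.95 and adjusted p = 0.189 without ZT14, Gpcpd1 had log2 -0.81 and adjusted p = 0.0924 without ZT10, Col27a1 had log2 1.55 and adjusted p = 0.101 without ZT6, Pcp4l1 had log2 1.495 and adjusted p = 0.101 without ZT6 and Serpina4-ps1 had log2 1.86 and adjusted p = 0.0604 without ZT6.

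Single metabolic genes were called in lists with few calls. Among all genes tested 1.24% were called higher in dark and 0.932% higher in light. Choline kinase Chka, the entry to phosphatidylcholine synthesis, was at 39.6 and 45.4 at ZT2, 3.08 and 1.56 at ZT10 and 52.4 and 47.8 at ZT22 (log2 difference 1.41, SE 0.18, adjusted p = 0.0059). Of 17 genes of NAD metabolism, 2 were higher in dark, the nicotinamide riboside kinase Nmrk1 (log2 0.89, adjusted p = 0.0133) and the kynurenine pathway enzyme Afmid (log2 0.52, adjusted p = 0.0488). Nampt, the rate-limiting enzyme of NAD salvage, did not pass (log2 0.74, adjusted p = 0.056). Of 23 genes of the urea cycle and amino acid breakdown, Asl of the urea cycle was higher in dark, at 129.7 to 317 (median 184) in light and 193 to 756 (median 426) in dark (log2 difference 1.01, SE 0.19, adjusted p = 0.0318). Hal, the first enzyme of histidine breakdown, was higher in light (log2 -0.64, adjusted p = 0.0355). The cytosolic acyl-CoA thioesterase Acot1 was the only call among 31 genes of fatty acid oxidation, at 5.503 to 13.9 (median 8.42) in light and 14.9 to 28.0 (median 21.4) in dark without overlap (log2 difference 1.23, SE 0.16, adjusted p = 0.00652), while its mitochondrial paralog Acot2, whose sequence is close enough that reads may be shared, did not pass (log2 0.70, adjusted p = 0.0631). The transferrin receptor Tfrc (log2 1.45, adjusted p = 0.0488), the fatty acid sensor Ppard (log2 0.93, adjusted p = 0.0391), the glutathione transferase Gsta3 (log2 0.67, adjusted p = 0.0266) and the cargo receptor subunit Mcfd2 (log2 0.46, adjusted p = 0.0488) were higher in dark. Most of these calls were close to the threshold. Leaving out 1 library ended those of Afmid, Tfrc and Mcfd2 in 11 of 12 fits, those of Hal, Ppard and Gsta3 in 10, that of Asl in 9 and that of Nmrk1 in 2, with adjusted p up to 0.139 (Tfrc without ZT2 replicate 1). Without 1 time, Ppard had log2 0.35 and adjusted p = 0.607 without ZT6, Nmrk1 had log2 0.55 and adjusted p = 0.271 without ZT6, and the highest adjusted p of the 6 others (Afmid, Tfrc, Mcfd2, Hal, Gsta3 and Asl) ran from 0.17 for Asl to 0.258 for Mcfd2. Chka had log2 0.57 and adjusted p = 0.153 without ZT10, and Acot1 had log2 1.05 and adjusted p = 0.0662 without ZT6.

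No member was called among 32 proteasome subunits (median -0.02), 28 nuclear genes of the respiratory chain (median 0.09), 31 cytochrome P450 genes and their regulators (median 0.07), 15 apolipoproteins (median 0.02), 20 tRNA synthetases (median 0.01) or 17 interferon response genes (median -0.08). The P450 gene with the smallest p was Cyp2a5, which oxidises coumarin, at 91.4 to 549.9 (median 216) in light and 167 to 562 (median 381) in dark (log2 0.71, adjusted p = 0.0633). The 13 mitochondrially encoded genes had a median of -0.27 with no call, and 11 of 13 lay below 0. This median turned on ZT14: it was -0.0022 without ZT14 replicate 1, the library with the low mitochondrial share, 0.35 without both ZT14 libraries, and -0.57 with 4 calls, 1 higher in dark and 3 in light, without ZT14 replicate 2. Of 13 immediate early genes 12 lay below 0 (median -0.57) and none passed. Their median was -0.33 without ZT14 replicate 1, -0.32 without ZT10 replicate 2 and -0.93 without ZT10 replicate 1. Junb, an AP-1 subunit, was at 20.7 to 74.3 (median 27.1) in light and 5.30 to 31.4 (median 8.44) in dark, where ZT18 replicates stood at 5.499 and 31.4 (log2 -1.61, adjusted p = 0.103). A miss of the threshold does not show that the phases were alike in these genes. The plot of list members sets the groups side by side.

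**Figure D4:**
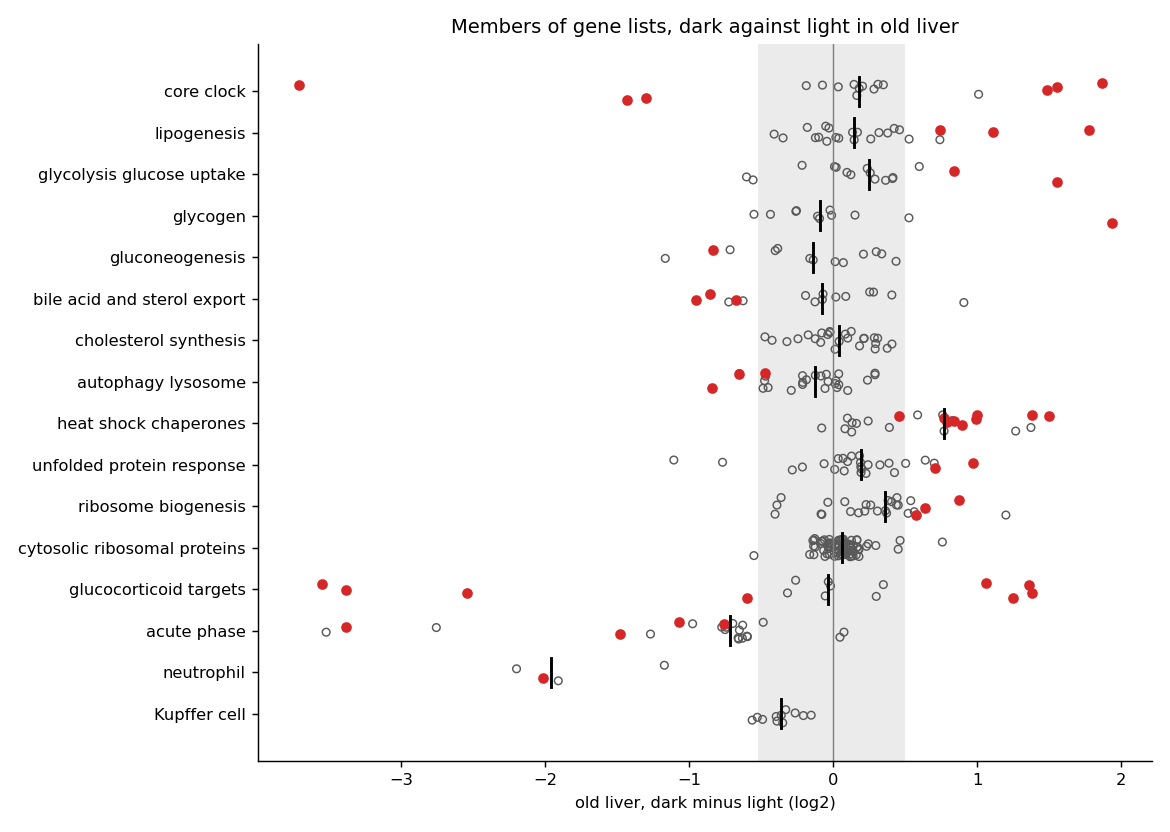
Dark minus light log2 difference in old liver for each tested member of 16 gene lists: red filled points passed the test, open points did not, black bars are list medians and the grey band holds the middle 90% of all 12228 genes tested. Vertical position within a list is spread only to separate points. Heat shock and chaperone genes lie mostly to the right, acute phase, neutrophil and Kupffer cell genes to the left.

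A gene can vary strongly over the day and still have equal phase means. Of the 262 genes called over the 6 times, 140 were also called for dark against light and 55 had an unadjusted p over 0.05 for it. Insig2, which holds back lipid synthesis, had the smallest p of the named ones (adjusted p over times 0.00427). It was at 239.8 and 300.3 at ZT2 and 62.0 and 57.0 at ZT14 but had phase means of 157 and 152. Zfand4, a zinc finger gene, was also lowest at ZT14, at 7.05 and 7.11 (adjusted p over times 0.0107). The other named genes of this kind peaked at ZT10. Coq10b, of the coenzyme Q family, was at 46.6 and 69.3 there and at 8.94 and 8.16 at ZT2 (adjusted p over times 0.0183). The interferon-induced GTPase genes Gbp3 and Tgtp1 were at 12.2 and 18.1 and at 35.7 and 23.2 at ZT10, and Cebpd, an acute phase transcription factor gene, was at 9.35 and 11.2. Their adjusted p over times was 0.0114, 0.0219 and 0.0248.

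The same comparison in young liver called 484 genes (3.96%), 259 higher in dark (2.12%) and 225 higher in light (1.84%). Of the old calls 155 were called in young in the same direction, which is 58.3% of the old and 32.0% of the young calls, and 0 were called in the opposite direction. In young liver the balance of directions depended on scaling: 53.5% of calls were higher in dark, but 36.0% with the TPM unscaled, a setting that moved the median of all genes to -0.13. Of the 266 old calls 264 had the same sign in young. Across genes the 2 log2 differences had a Pearson correlation of 0.508, and 0.888 among genes called in old. Both describe genes that share libraries and are not independent. The 0.888 is also raised by the choice of genes, since those near 0 in old were left out. The test of the difference itself called 3 genes (0.0245%), with 482 at an unadjusted p under 0.05 (3.94%). Among the 266 old calls, which were chosen by their old difference, 37 had such an unadjusted p. Leaving out any 1 of the young libraries gave 150 to 524 calls in young liver.

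**Figure D5:**
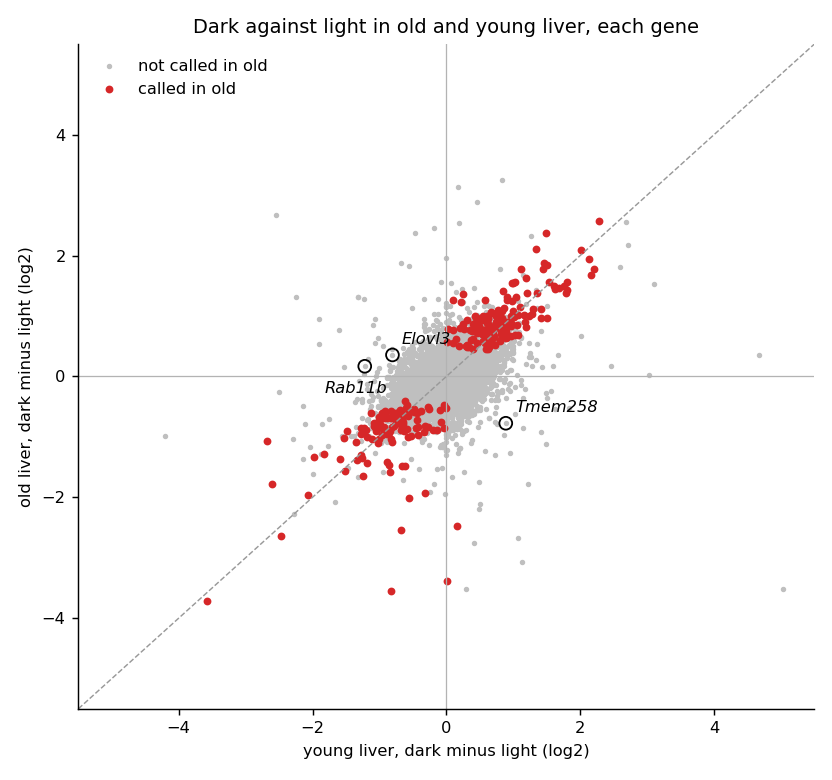
Dark minus light log2 difference in young liver (horizontal) and in old liver (vertical) for each of 12228 genes: red points passed the test in old, grey points did not, and the dashed line marks equal differences. Red points lie mostly along the line, and the circled genes Elovl3, Rab11b and Tmem258 are the 3 whose difference between the ages passed its test.

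Elovl3 (chr19:46131897-46135307), an elongase of very long fatty acids, was at 27.6 to 706 (median 179.6) in old light and 22.7 to 979 (median 409) in old dark libraries, a difference that did not pass (log2 0.36, adjusted p = 0.182), and was higher in light in young liver (log2 -0.81, adjusted p = 0.00706). Old minus young was 1.16 (SE 0.16, adjusted p = 0.0232). At ZT2 and ZT14 the ages were close, with 706 and 678 in old and 804 and 665 in young at ZT2 and 25.8 and 22.7 and 22.4 and 22.2 at ZT14. At ZT10 old liver had 36.4 and 27.6 and young liver 61.2 and 82.3, whereas at ZT18 old liver had 379.7 and 439 and young liver 219 and 214. Rab11b, a GTPase of recycling endosomes, was at 10.2 to 18.5 (median 13.2) in old light and 11.4 to 23.7 (median 15.0) in old dark libraries, while in young liver it ran from 14.5 to 21.9 in light and 4.29 to 14.1 in dark (old minus young 1.39, SE 0.21, adjusted p = 0.0388). Tmem258, a subunit of the oligosaccharyltransferase, was at 53.1 to 183 (median 76.0) in old light and 35.3 to 63.0 (median 51.2) in old dark libraries, against 45.2 to 76.5 and 63.9 to 189 in young (old minus young -1.66, SE 0.25, adjusted p = 0.0388). With only the phase means in the fit none of the 3 differences passed, and leaving out 1 library gave 0 to 18 calls.

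Several inflammatory genes had large differences between the ages that did not pass this test. Lcn2 was at 3.13 to 8.54 in the young light libraries and 2.50 to 11.2 in the young dark ones (old minus young -3.39, unadjusted p = 0.00013, adjusted p = 0.319 by limma). Prtn3 was at most 0.772 in any young library (old minus young -2.62, adjusted p = 0.206). Orm3, a further alpha-1-acid glycoprotein, was at 7.38 to 30.3 (median 12.6) in old light and 3.57 to 12.6 (median 4.40) in old dark libraries (old minus young -2.22, adjusted p = 0.694). The median of the 22 acute phase genes was -0.72 in old and 0.02 in young. Of the 22, 12 had an unadjusted p under 0.05 for the age difference, beside 3.94% of all genes, and none passed after adjustment. These genes were read from the same libraries and are not independent, so the 12 are no test of the list. Among the 4 called in old, Lcn2 and Il1rn had young log2 differences of 0.01 and -0.62, and Fga and Orm2 had -0.65 and -2.68. None of these 4 passed in young. For Fga and Orm2 the unadjusted p for the age difference was 0.661 and 0.422 by limma. The 23 chaperone genes had medians of 0.77 in old and 0.59 in young, and 2 had an unadjusted p under 0.05 for the age difference. Acot1 was at 17.5 to 29.6 in young light and 19.3 to 33.0 in young dark libraries (old minus young 1.005, adjusted p = 0.694). Slc25a20, the carnitine carrier of mitochondria, had 0.44 (adjusted p = 0.694) and the adaptor gene Shkbp1 -1.26 (adjusted p = 0.694).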

How the data were processed

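RNA from whole mouse liver was measured by oligo-dT, strand-specific, single-end sequencing of 50 bases in 24 libraries, per the labels' protocols. Reads were aligned with HISAT2 and assembled with StringTie on GRCm38, per the submitters' processing notes, with versions not given in the sources used here. The deposited tables hold TPM, FPKM and coverage (a signal of mean read depth) per gene, all computed by the authors. Since these are not counts, a log-scale test was used. TPM was the main unit, FPKM an alternative, and the ratio of coverage to FPKM gave mapped depth.

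Rows of 1 gene ID were summed, giving 43629 gene IDs. Libraries were scaled by a median of ratios over 13270 genes above 0 in all 24. Genes with a mean of at least 1 scaled TPM over the 12 old libraries were tested with limma 3.58.1 in R 4.3.3 on log2(scaled TPM + 0.5), with 1 mean per time (6 residual degrees of freedom), empirical Bayes with an intensity trend and Benjamini-Hochberg adjustment over 12228 genes. The pseudocount shrinks the differences of low genes. The contrast was the mean of ZT14, ZT18 and ZT22 minus the mean of ZT2, ZT6 and ZT10. The same contrast was fitted in the 12 young libraries, and old minus young in all 24. On simulated data with 12228 genes and 50 genes planted at each size, the dark against light test recovered 14%, 74%, 86% and 92% at log2 0.5, 1, 1.5 and 2, with 8 false among 141 calls. The simulated noise was independent between libraries and the planted shift was the same at every dark time. These rates therefore need not hold for the real libraries.

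Named genes are the 12 largest called differences in each direction with at least 5 scaled TPM, every clock gene tested, up to 4 members of each list with the smallest p, 6 genes that varied over times only, and 5 in each direction for the age difference. Predicted genes were counted (40 of the 266) and not named, and a few other genes are counted but not reported here. The members, gene lists and tests were chosen with earlier results of these data known. Of the list entries, 878 were matched by the name in the files and 2 through GENCODE M21. Alternatives were other scalings, units, pseudocounts, filters and models, and each library and time left out. Promoters came from RefSeq (GRCm38.p6).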

Additional observations from a re-analysis of the deposited data

Results flagged for a closer look

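In 7 of 196 groups of 6 old libraries, 1 library stood further from its nearest neighbour, relative to the group's range, than the critical value of 0.625. The critical value assumes 6 draws from 1 normal distribution. Each group here spans several times, so its nominal rate of about 1 in 20 groups need not hold. In light, Pcp4l1 was highest in ZT2 replicate 1, at 5.621 scaled TPM, Tsc22d3 in ZT10 replicate 2, at 47.48, and the adaptor gene Shkbp1 in ZT2 replicate 2, at 9.882. In dark, Lcn2 was highest in ZT14 replicate 2, at 36.12, and Rora in ZT18 replicate 2, at 26.98. S100a8 was listed at 0 in ZT14 replicate 1, the library with the low mitochondrial share, and Shkbp1 was lowest in ZT14 replicate 2, at 2.196.

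The dark minus light difference of 3 genes differed between old and young liver by limma's test of that difference. Old minus young was 1.161 on the log2 scale for Elovl3, 1.388 for Rab11b and -1.663 for Tmem258.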

How the results depend on the processing

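Against 266 genes called for dark against light in old liver, the count was 517 (284 in dark, 233 in light) with both ages in 1 fit, 92 (55 in dark, 37 in light) with phase means only, 173 (95 in dark) with unscaled TPM and 185 (98 in dark) after removing mitochondrial genes. It was 32 (20 and 12) without ZT6, 146 (86 and 60) without ZT14 and 60 (38 and 22) without ZT18. Without 1 library it ran 122 to 266 (71 to 151 in dark, 51 to 115 in light). Variation over times, with 262 genes, gave 698 with both ages in 1 fit, 127 to 220 without 1 library, and 165, 137, 171, 140 and 170 without ZT2, ZT6, ZT10, ZT14 and ZT22. Young liver, with 484, gave 61 with phase means only, 286 with unscaled TPM, 320 without mitochondrial genes and 150 to 524 without 1 library. There the share of calls higher in dark was 53.5% at first, 36.0% with unscaled TPM, 41.6% with FPKM, 38.4% without mitochondrial genes and 39.3% with phase means only. The age difference, with 3, gave 0 with phase means only, 1 without an intensity trend and 0 to 18 without 1 library. The causes of these shifts were not tested.

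Replicate numbers were tested as a block, since the labels number replicates 1 and 2 at each time. With the replicate block the counts were 567 (298 in dark, 269 in light) for dark against light in old, 552 for variation over times and 881 in young. Of 15 pairs of times, 13 had same-numbered deviations correlated above 0.1 (0.0214 lowest, 0.192 median, 0.356 highest), and all 15 were positive. Since not every pair exceeded 0.1 and the labels do not tie replicate numbers to days, the replicate block was kept as an alternative, and whether the numbers mark a shared day or batch was not settled. With the block 10 acute phase genes were higher in light and 13 chaperone genes higher in dark, against 4 and 9 without it.

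No named gene called for dark against light reversed under any alternative. Genes that did not pass and had phase means close together did change sign. The log2 difference of Cebpd was -0.015 with TPM rescaled without mitochondrial genes, -0.011 with a pseudocount of 1, -0.0057 with unscaled FPKM and -0.010 with unscaled TPM. With 1 time left out, the log2 difference without ZT2 was -0.57 for Per1, -0.71 for Per3, -0.11 for Bhlhe40, -0.70 for Tef, -0.13 for Hlf, 0.45 for Insig2, -0.49 for Coq10b and -0.36 for Cebpd. Without ZT6 it was -0.22 for Nfil3, -0.11 for Coq10b and -0.16 for Cebpd. Without ZT10 it was -0.12 for Clock, 0.092 for Cry2, 1.04 for Ciart, -0.054 for Nfil3, -0.20 for Zfand4, 0.54 for Gbp3, 0.80 for Tgtp1 and -0.80 for Elovl3. Without ZT14 it was -0.067 for Per1, -0.26 for Per3, -0.26 for Tef, -0.040 for Hlf, 0.52 for Insig2, -0.26 for Coq10b, -0.14 for Cebpd and -0.010 for Rab11b. Without ZT18 it was -0.077 for Per3, 0.093 for Ciart, -0.23 for Zfand4, 0.18 for Gbp3, 0.20 for Tgtp1 and -0.15 for Elovl3. Without ZT22 it was 0.090 for Cry2, 0.43 for Ciart, -0.017 for Hlf, -0.0049 for Nfil3, -0.24 for Zfand4, 0.039 for Gbp3, 0.026 for Tgtp1 and -0.66 for Elovl3. Over the fits without 1 library the log2 difference ran from -0.075 to 0.15 for Hlf, -0.14 to 0.053 for Insig2, -0.051 to 0.20 for Zfand4, -0.14 to 0.040 for Gbp3, -0.057 to 0.21 for Coq10b, -0.45 to 0.095 for Tgtp1 and -0.068 to 0.074 for Cebpd.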
